A study of Mus musculus with 4 samples.

Results

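Laminins, integrins and the other components of the basement membrane were described in single cells of embryonic mouse hearts, class of cells by class of cells, at both stages and in both genotypes. The members were the rows of the deposited table named Lama, Lamb or Lamc with a number, or Itga or Itgb with a number or letter, together with Nid1, Nid2, Hspg2, Agrn and Bcam. The rule found 49 of 30268 rows by name and used no measured value, but the members were chosen with earlier results of these data known. In the cells kept, 38 members had at least 50 UMIs (unique molecular identifiers, each standing for 1 captured transcript), 11 had 1 to 49, and 0 had none. Of the 49 rows, 47 matched a gene of the GENCODE annotation by name. The other 2, Itgad_RP23-144N15.6 and Itgam_RP23-144N15.3, were joined rows of overlapping genes. The rule also took in 4 genes that encode no integrin subunit (Itgb1bp1, Itgb1bp2, Itgb3bp and Itgbl1).

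A laminin is a trimer of an alpha, a beta and a gamma chain, and laminin trimers polymerise into a sheet beneath epithelia and endothelia and around muscle cells. Nidogens (Nid1 and Nid2), perlecan (Hspg2) and agrin (Agrn) tie that sheet to the type IV collagen network and to the cell surface. Cells hold on to it through integrins, pairs of an alpha and a beta subunit, and through other receptors such as Bcam, an immunoglobulin-family protein that binds the laminin alpha chain made from Lama5. The epicardium, the outer cell layer of the heart, rests on such a membrane, which its cells leave when they become fibroblasts and mural cells.

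The hearts set against controls were Wt1 CreERT2/+; Lats1/2 F/F; Rosa26mTmG/+ (Lats1/2 CKO, conditional knockout, written CKO with values) and the control hearts Wt1 CreERT2/+; Rosa26mTmG/+, each at E14.5 and at E13.5 (embryonic days). Both genotypes thus carried a tamoxifen-activated Cre recombinase (CreERT2) at the Wt1 locus, and the mTmG reporter, which switches to membrane EGFP in recombined cells. Lats1 and Lats2 encode kinases of the Hippo pathway that restrain the coactivators YAP and TAZ. Recombination is limited to cells in which Wt1 is active, and the tamoxifen schedule and the number of embryos per library are not given in the sources used here. Each genotype and stage had 1 Drop-seq library, in which single cells are caught in droplets with barcoded beads and transcripts are read from their 3′ ends.

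After filtering, the libraries held 5595 CKO and 5504 control cells at E14.5, and 5915 CKO and 4471 control cells at E13.5. The median number of UMIs per cell was 1035 in CKO and 955 in control cells at E14.5, and 2015 in CKO and 1589 in control cells at E13.5. Any pair of libraries shared 2 to 4 cell barcodes. Cells were clustered with all members left out of the clustering genes, and clusters were named from fixed markers. The members thus did not shape the classes directly. Genes expressed along with them stayed in, so the classes are not independent of the members. Epicardial-like cells carried all 11 epicardial markers in every library, which summed to 5709.6 CPM in CKO and 5498 CPM in control cells at E14.5, and 5700.5 CPM in CKO and 5811 CPM in control cells at E13.5 (CPM, the count scaled to 1000000 UMIs of the class and library). Other classes held at most 389 CPM of them. The class had 216 CKO and 94 control cells at E14.5, and 223 CKO and 114 control cells at E13.5. The fibroblast markers were also high in it, at 18438 CPM in CKO and 28493 CPM in control cells at E14.5, and 17356 CPM in CKO and 19329 CPM in control cells at E13.5, against 14780 to 17863 CPM in fibroblast-like cells. Fibroblast-like, valve mesenchyme-like and cardiomyocyte-like cells were held mostly by different clusters at the 2 stages (clusters 6 and 9, clusters 3 and 5, and clusters 2 and 11 against 7 and 8). Erythroid-like cells numbered 39 in the control E13.5 library and were not compared.

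The knockout was checked on its targets. In epicardial-like cells Lats2 stood at 48.4 CPM in CKO and 82.7 CPM in control cells at E14.5, and 31.4 CPM in CKO and 66.6 CPM in control cells at E13.5. Lats1 stood at 21.3 CPM in CKO and 44.1 CPM in control cells at E14.5, and 17.0 CPM in CKO and 26.7 CPM in control cells at E13.5. Both genes were lower in CKO cells at both stages on 8 to 25 UMIs a library, and neither was at 0. The reporter transcript Egfp stood at 589 CPM in CKO and 38.6 CPM in control cells at E14.5, and 618 CPM in CKO and 88.0 CPM in control cells at E13.5 in these cells. In fibroblast-like cells it stood at 131 CPM in CKO and 26.5 CPM in control cells at E14.5, and 165 CPM in CKO and 44.6 CPM in control cells at E13.5, and in cardiomyocyte-like cells at 11.6 to 23.7 CPM over the 4 libraries. Both genotypes carried CreERT2 and the reporter, yet Egfp was higher in CKO epicardial-like and fibroblast-like cells at both stages. The source of that difference, and its part in the genotype differences of the members, was not tested. The tags are read near the 3′ end, so they need not lie in the deleted part of Lats1 or Lats2.

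A set of 3 members carries the results below: Bcam (ENSMUSG00000002980, chr7:19756131-19771016, minus strand), Itga1 (ENSMUSG00000042284, chr13:114953096-115101964, minus strand) and Lama5 (ENSMUSG00000015647, chr2:180176373-180225859, minus strand), in GENCODE coordinates of GRCm38. Their promoters, the 250 bases before the gene start from RefSeq on GRCm38.p6, are shown 5′ to 3′ because the first 2 genes had the largest log2 changes between the genotypes among members tested in epicardial-like cells and Lama5 is the laminin chain that Bcam binds. Capitals mark GGGCGG or CCGCCC, the letters bound by SP1 and KLF factors.
Bcam, chr7:19770533-19770782, minus strand: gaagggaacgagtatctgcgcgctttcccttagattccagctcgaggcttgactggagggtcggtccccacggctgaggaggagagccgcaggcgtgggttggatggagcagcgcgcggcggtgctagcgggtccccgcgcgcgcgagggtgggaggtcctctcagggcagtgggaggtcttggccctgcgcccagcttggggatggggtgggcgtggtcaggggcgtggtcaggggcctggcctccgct
Itga1, chr13:115101965-115102214, minus strand: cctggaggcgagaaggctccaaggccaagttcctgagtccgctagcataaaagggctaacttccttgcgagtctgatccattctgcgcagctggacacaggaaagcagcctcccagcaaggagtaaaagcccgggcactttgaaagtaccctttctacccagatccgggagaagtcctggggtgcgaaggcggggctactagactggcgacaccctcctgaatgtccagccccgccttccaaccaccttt
Lama5, chr2:180225860-180226109, minus strand: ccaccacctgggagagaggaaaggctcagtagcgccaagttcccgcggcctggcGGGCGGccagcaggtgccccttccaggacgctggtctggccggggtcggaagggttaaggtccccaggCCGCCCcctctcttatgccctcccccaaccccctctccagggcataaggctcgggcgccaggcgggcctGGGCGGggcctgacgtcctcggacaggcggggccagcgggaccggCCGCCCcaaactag
The Lama5 promoter held 4 such matches, and those of Bcam and Itga1 held 0. At least 1 match stood in 32.7% of 32851 RefSeq promoters of this length and in 14 of 35 promoters of members, which belong to 12 of 31 members with a promoter. CATTCC or GGAATG, the letters bound by TEAD factors, the DNA-binding partners of YAP, stood in none of these 3 promoters. They stood in 4 of 35 promoters of members (Itga10, Itgb1, Lamb3 and Nid1) and in 12.6% of all promoters. TGACTCA or TGAGTCA, the AP1 letters, stood in 1 of 35 promoters of members (Itgax) and in 4.46% of all promoters. All motifs were searched on both strands, and a match of 1 of them cannot be a match of another. RefSeq starts Bcam inside the GENCODE span given above.

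The classes had different laminin alpha chains. Lama5, found in the basement membranes of epithelia, stood in epicardial-like cells at 246 CPM in CKO and 159.9 CPM in control cells at E14.5, and 142 CPM in CKO and 117 CPM in control cells at E13.5. Its range in mural-like cells, the next class, was 24.7 to 39.4 CPM, and in fibroblast-like cells 0 to 7.82 CPM, so no epicardial-like library overlapped with any other class. Lama4, the chain of vessel walls, was laid out otherwise. It stood at 414 to 511 CPM in endothelial-like cells (the lining of coronary vessels), 292 to 381 CPM in endocardial-like cells (the inner lining of the heart) and 38.6 to 67.8 CPM in epicardial-like cells. The endocardial-like class joined clusters 0 and 4, which had different leading genes and were not described apart. Lama2, the chain around muscle fibres, was highest on average in mural-like cells (13.1 to 65.9 CPM), where its range overlapped those of several classes. Lama3, an epithelial chain, had under 50 UMIs in all, with 2.67 to 15.5 CPM in epicardial-like cells and 0 to 6.22 CPM in the other classes. Lama1 stayed at or under 3.87 CPM in every class.

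The beta and gamma chains were more evenly spread. Lamb2 was highest in epicardial-like cells, with 114 CPM in CKO and 66.2 CPM in control cells at E14.5, and 71.8 CPM in CKO and 56.0 CPM in control cells at E13.5, and stayed at or below 42.0 CPM in every library of the other classes. Lamb1 ran from 305 to 415 CPM in endothelial-like cells and 264 to 389 CPM in fibroblast-like cells down to 18.02 to 43.5 CPM in macrophage-like cells. Lamc1, the gamma chain of most laminins, stood at 117 to 227 CPM in epicardial-like, 122 to 164 CPM in endothelial-like and 73.1 to 90.8 CPM in cardiomyocyte-like cells, ranges that overlap in part. Lamb3, a partner of the Lama3 chain, reached at most 7.60 CPM. That highest value was the CKO E14.5 cardiomyocyte-like library, against 1.39 CPM in the control library of that stage.

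**Figure D1:**
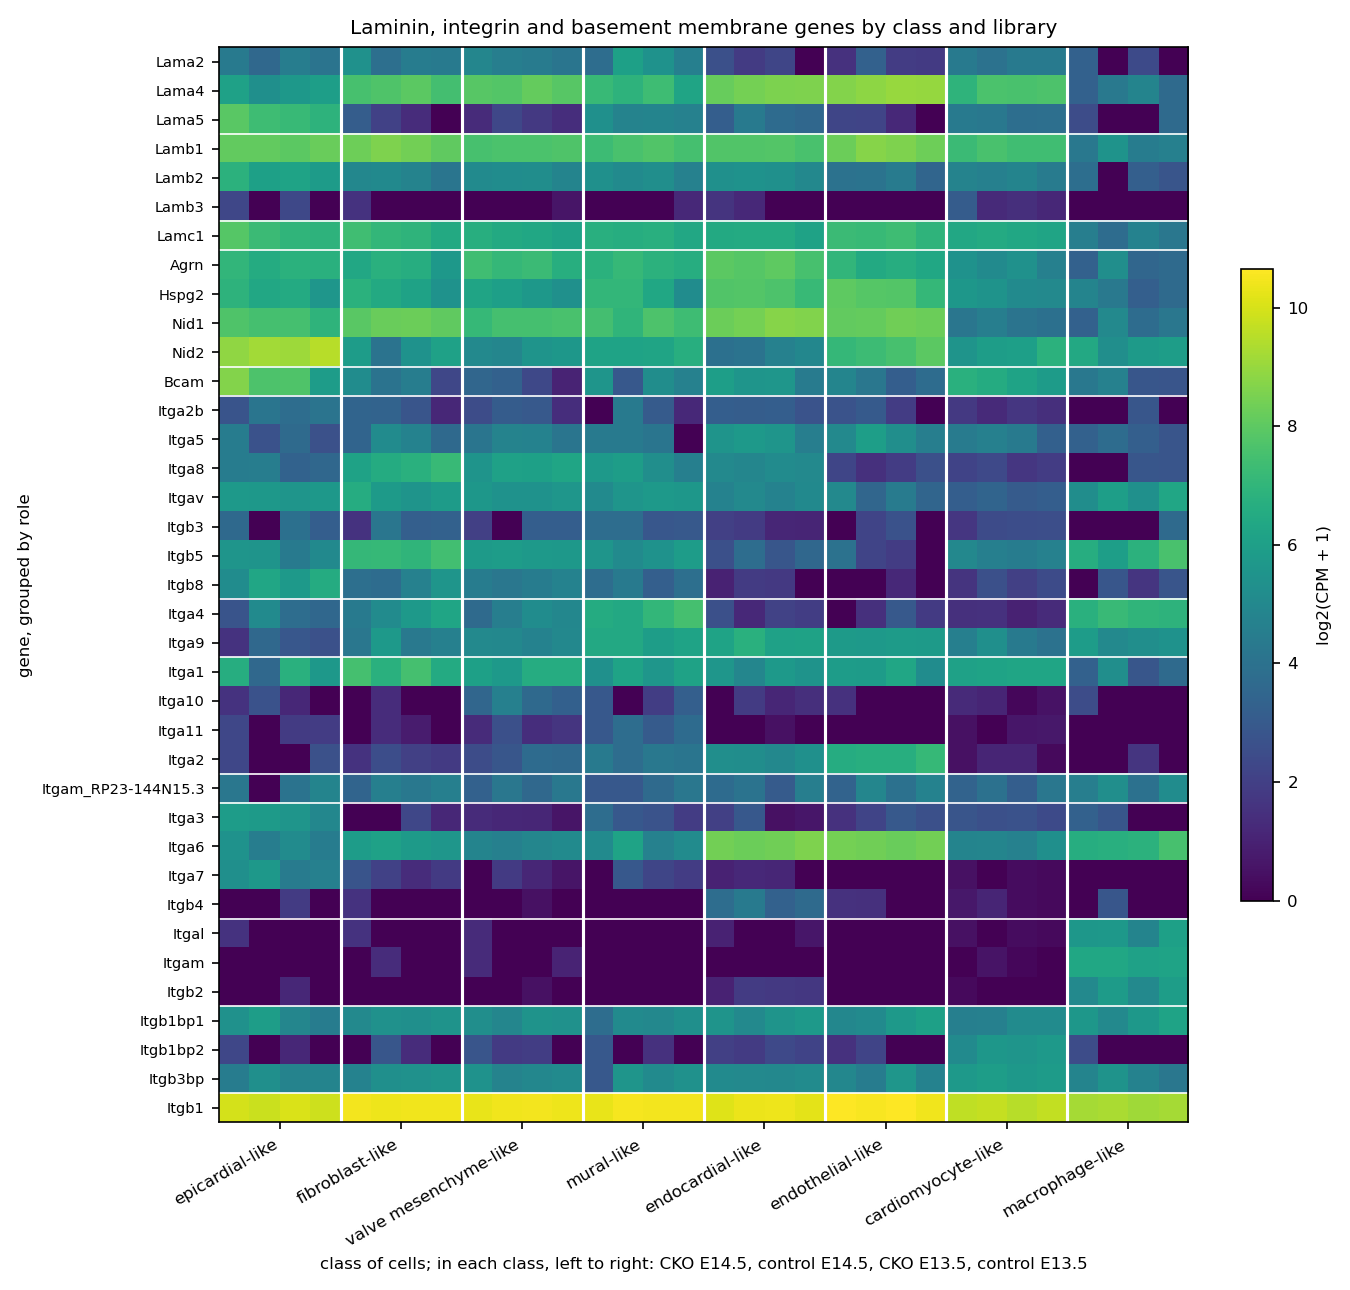
Level of 37 members with at least 50 UMIs, as log2(CPM + 1), by class of cells (columns) and gene grouped by role (rows), with 4 libraries in each class from CKO E14.5 on the left to control E13.5 on the right. Nid2, Lama5 and Bcam are bright in the epicardial-like columns, Lama4, Itga6 and Nid1 in the endocardial-like and endothelial-like columns, and Itgb1 in all.

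The linkers of the membrane were spread unevenly over the lining layers, but Nid1 and perlecan did not set endocardial-like and endothelial-like cells apart. Nid2 stood in epicardial-like cells at 473 CPM in CKO and 585 CPM in control cells at E14.5, and 538 CPM in CKO and 725 CPM in control cells at E13.5. The next class was endothelial-like cells, with 137 to 253 CPM, and endocardial-like cells had 14.1 to 29.1 CPM. Nid1 was laid out otherwise, with 303 to 416 CPM in endocardial-like, 269 to 325 CPM in endothelial-like, 120.0 to 211 CPM in epicardial-like and 14.3 to 22.2 CPM in cardiomyocyte-like cells. Agrin was highest in endocardial-like cells (188 to 259 CPM), above all libraries of the other classes. Perlecan was highest in endothelial-like (137 to 258 CPM) and endocardial-like cells (144 to 222 CPM), whose ranges overlap. Nid2 overlaps Rtraf on the opposite strand, Itga1 overlaps Pelo on its own strand, and Itga4 and Itga7 overlap Cerkl and Mettl7b on the opposite strand. Whether reads were counted by strand is not given in the sources used here, and reads of such partners cannot be told apart.

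Among the laminin receptors, Bcam stood in epicardial-like cells at 403 CPM in CKO and 204 CPM in control cells at E14.5, and 212 CPM in CKO and 58.6 CPM in control cells at E13.5. Cardiomyocyte-like cells followed with 57.1 to 108 CPM and endocardial-like cells with 20.5 to 61.5 CPM, while valve mesenchyme-like cells had 1.08 to 10.5 CPM and macrophage-like cells 5.96 to 24.9 CPM. The epicardial-like range overlapped that of cardiomyocyte-like cells through the control E13.5 library alone. Itga3 and Itga7, laminin-binding subunits that pair with Itgb1, were highest in epicardial-like cells. Itga3 had 29.3 to 58.1 CPM there and at most 13.1 CPM elsewhere, and Itga7 20.9 to 49.6 CPM and at most 6.59 CPM elsewhere. Itga6, the third laminin-binding subunit, was high in endocardial-like (302 to 387 CPM) and endothelial-like cells (298 to 342 CPM), whose ranges overlap, and stood at 21.3 to 42.6 CPM in epicardial-like cells. Its partner Itgb4 was found in endocardial-like cells at 8.99 to 19.7 CPM and in other classes at no more than 6.22 CPM.

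**Figure D2:**
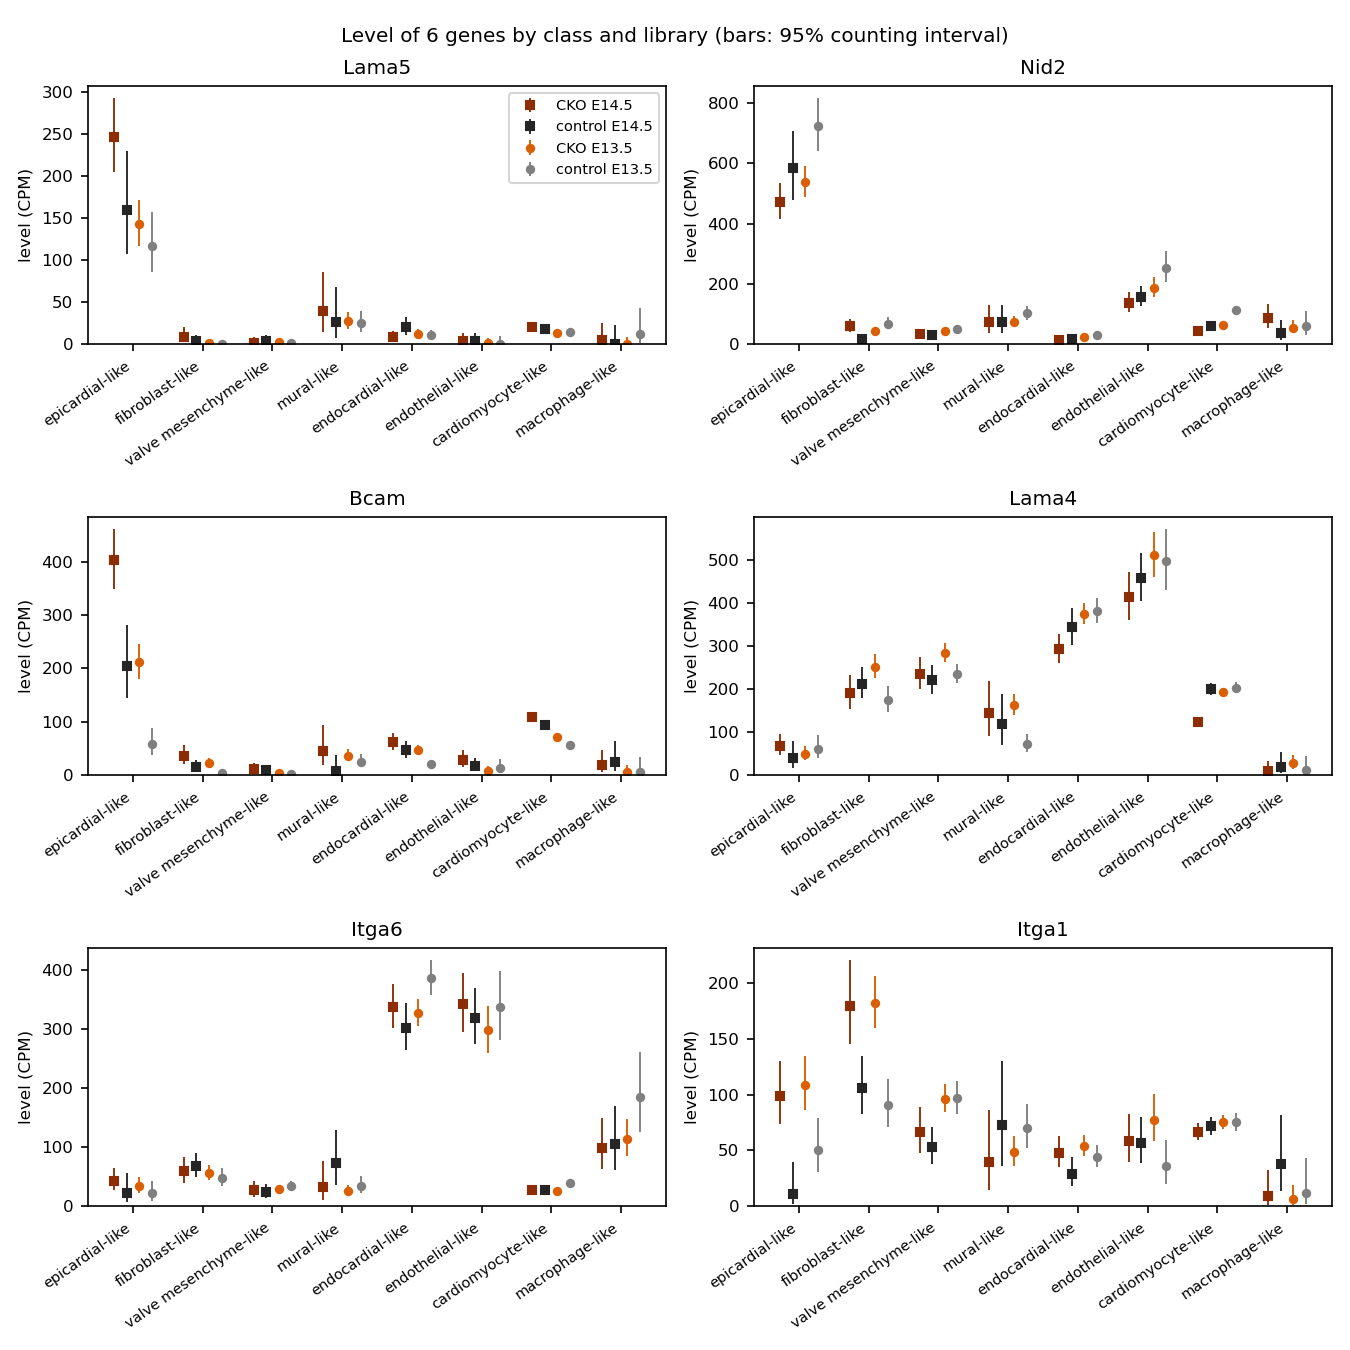
Level in CPM of Lama5, Nid2, Bcam, Lama4, Itga6 and Itga1 by class of cells, with a point for each library (CKO and control at E14.5, then CKO and control at E13.5) and bars for the 95% counting interval. Lama5 and Nid2 stand highest in epicardial-like cells in all 4 libraries, Lama4 in endothelial-like cells, and Bcam reaches 403 CPM in the CKO E14.5 library of epicardial-like cells.

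The collagen-binding subunits were each highest in another class. Itga1 stood in fibroblast-like cells at 179.8 CPM in CKO and 106 CPM in control cells at E14.5, and 182 CPM in CKO and 90.5 CPM in control cells at E13.5. Itga2 was found in endothelial-like cells at 95.4 to 142 CPM and in endocardial-like cells at 30.2 to 39.9 CPM, with no more than 19.7 CPM in other classes. Itga10 was highest in valve mesenchyme-like cells (8.63 to 23.8 CPM) and Itga11 in mural-like cells (6.56 to 13.2 CPM), both at few UMIs per library.

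Of the subunits for fibronectin and related ligands, Itga8 was highest in fibroblast-like cells (70.3 to 144 CPM), where its range overlapped that of valve mesenchyme-like cells (45.0 to 76.6 CPM). Itgb5 was high in fibroblast-like (123 to 171 CPM) and macrophage-like cells (62.2 to 191 CPM). Itgb8, which pairs with Itgav and releases active TGF-beta, stood in epicardial-like cells at 34.9 CPM in CKO and 77.2 CPM in control cells at E14.5, and 52.2 CPM in CKO and 93.3 CPM in control cells at E13.5. Itgav itself was spread over the mesenchymal classes, with 44.2 to 95.8 CPM in fibroblast-like and 45.7 to 52.3 CPM in epicardial-like cells. Itga4, which binds Vcam1 and fibronectin and without which the mouse epicardium does not form, was high in mural-like (85.7 to 184 CPM) and macrophage-like cells (108 to 149 CPM), and had 5.81 to 33.1 CPM in epicardial-like cells. Itga9 was highest in endocardial-like cells (67.0 to 108 CPM), overlapping mural-like cells (59.2 to 85.7 CPM).

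Of the leukocyte subunits, Itgam, Itgal and Itgb2 marked macrophage-like cells. The others were rare. These cells held 8 of 18 UMIs of Itgb7, 2 of 8 of Itgax and 1 of 1 of Itgb2l. They held 1 of 12 of Itgae and 0 of 11 of Itgad. Itgam stood in macrophage-like cells at 67.1 to 81.1 CPM, Itgal at 27.2 to 65.5 CPM and Itgb2, their shared partner, at 31.4 to 59.6 CPM. No more than 2.63 CPM of any of these 3 stood in a library of the other classes. The joined row Itgam_RP23-144N15.3 was not confined in this way, with 0 to 37.3 CPM over all classes. Itga2b and Itgb3, the platelet fibrinogen receptor, were highest on average outside the 8 classes compared. Erythroid-like cells had 11.4 to 106 CPM of Itga2b and 3.82 to 70.7 CPM of Itgb3. Cluster 17, with 45 cells of that class, also exceeded the other clusters in 4 megakaryocyte markers. Which cells of the class held the 2 genes was not worked out. Itgb1, the beta subunit that most alpha subunits share, was present in every class, between 555 CPM in a macrophage-like library and 1612 CPM in an endothelial-like one. Itgb1bp2, the muscle protein melusin, was a cardiomyocyte gene (33.4 to 51.4 CPM), and Itgb3bp, a centromere protein, stood at 49.9 to 59.7 CPM in that class.

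Over the 38 members with at least 50 UMIs, epicardial-like cells had the highest mean level of 9 (Bcam, Itga2b, Itga3, Itga7, Itgb8, Lama5, Lamb2, Lamc1 and Nid2), endocardial-like and macrophage-like cells of 6 each, and endothelial-like cells of 5. Cardiomyocyte-like and fibroblast-like cells had the highest mean of 4 each, mural-like cells of 3 and valve mesenchyme-like cells of 1. In 16 of the 38 members the 4 libraries of the highest class all lay above every library of the other 7 classes. Of these, 5 belonged to epicardial-like cells (Itga3, Itga7, Lama5, Lamb2 and Nid2). The share of all genes separated in this way was not worked out, so these counts do not set the members apart from other genes. These levels are a description of classes within the same libraries and carry no test.

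Whether loss of Lats1 and Lats2 changed these genes was asked first in epicardial-like cells. Bcam, the laminin receptor, rose in CKO cells. Its log2 ratio of CKO over control was 0.97 (95% counting interval 0.47 to 1.53) at E14.5 and 1.82 (1.20 to 2.57) at E13.5, from the levels given above. Both CKO libraries lay above both control libraries, and the closest pair was CKO E13.5 with 212 CPM and control E14.5 with 204 CPM. An edgeR quasi-likelihood fit of genotype and stage over the 4 libraries of the class gave a log2 change of 1.38, SE 0.28, adjusted p = 0.0134 (Benjamini-Hochberg over 7527 genes). Bcam was the only one of 20 members tested that passed at 0.05, where 0.611% of all genes tested passed. In DESeq2 0 members passed, where 0.133% of all genes did, 2 had an unadjusted p under 0.05 (1.28% of all genes), and the adjusted p of Bcam was 0.874. The call was lost in 10 of 13 alternatives, with log2 changes between 0.57 and 2.44, all upward. Without the CKO E14.5 library the change was 0.74 (adjusted p = 0.9998), without CKO E13.5 1.73 (adjusted p = 0.168), without control E13.5 0.57 (adjusted p = 0.891) and without control E14.5 2.44 (adjusted p = 0.000715), in edgeR fits with no stage term.

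Itga1, which pairs with Itgb1 as a collagen receptor, stood in epicardial-like cells at 98.8 CPM in CKO and 11.0 CPM in control cells at E14.5, and 108 CPM in CKO and 50.6 CPM in control cells at E13.5. The control E14.5 value rests on 2 UMIs. The log2 ratio was 2.85 (95% counting interval 1.24 to 6.25) at E14.5 and 1.07 (0.37 to 1.90) at E13.5, and the groups did not overlap. The edgeR fit gave a log2 change of 1.64, SE 0.44, adjusted p = 0.0802, which missed the threshold. Without the control E13.5 library it was 3.17 (adjusted p = 0.0132) in a fit with no stage term, which rests on the 2 control UMIs. Itgb8 was lower in both CKO libraries, with log2 ratios of -1.16 (-2.24 to -0.028) at E14.5 and -0.84 (-1.53 to -0.14) at E13.5, and did not pass in edgeR (log2 change -0.95, SE 0.40, adjusted p = 0.438).

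The laminin chains and linkers of the epicardial class differed less, and 0 of them passed. Lama5 had log2 ratios of 0.60 (0.03 to 1.26) at E14.5 and 0.27 (-0.24 to 0.82) at E13.5, and its CKO E13.5 library lay below the control E14.5 library. Lamb2 was higher in both CKO libraries than in both control libraries, with ratios of 0.74 (-0.12 to 1.82) and 0.34 (-0.39 to 1.16) at the same stages and both intervals reaching 0. Nid2, the linker of this class, was lower in both CKO libraries, with -0.31 (-0.64 to 0.036) at E14.5 and -0.43 (-0.65 to -0.20) at E13.5. Perlecan stood at 118 CPM in CKO and 82.7 CPM in control cells at E14.5, and 91.4 CPM in CKO and 48.0 CPM in control cells at E13.5, and the interval of its ratio excluded 0 at E13.5 only, with 0.90 (0.17 to 1.77). Of the 20 members tested, 8 had both CKO libraries above both control libraries (Agrn, Bcam, Hspg2, Itga1, Itga6, Itgb1, Lamb2 and Nid1), as did 18.3% of all genes tested. In 3 members (Itgb3bp, Itgb8 and Nid2) both CKO libraries lay below both control libraries, as in 17.2% of all genes. At an unadjusted p under 0.05 stood 3 members (Bcam and Itga1 higher, Itgb8 lower), as did 8.94% of all genes. The median log2 change was 0.20 over the members tested and 0.0055 over all genes tested.

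**Figure D3:**
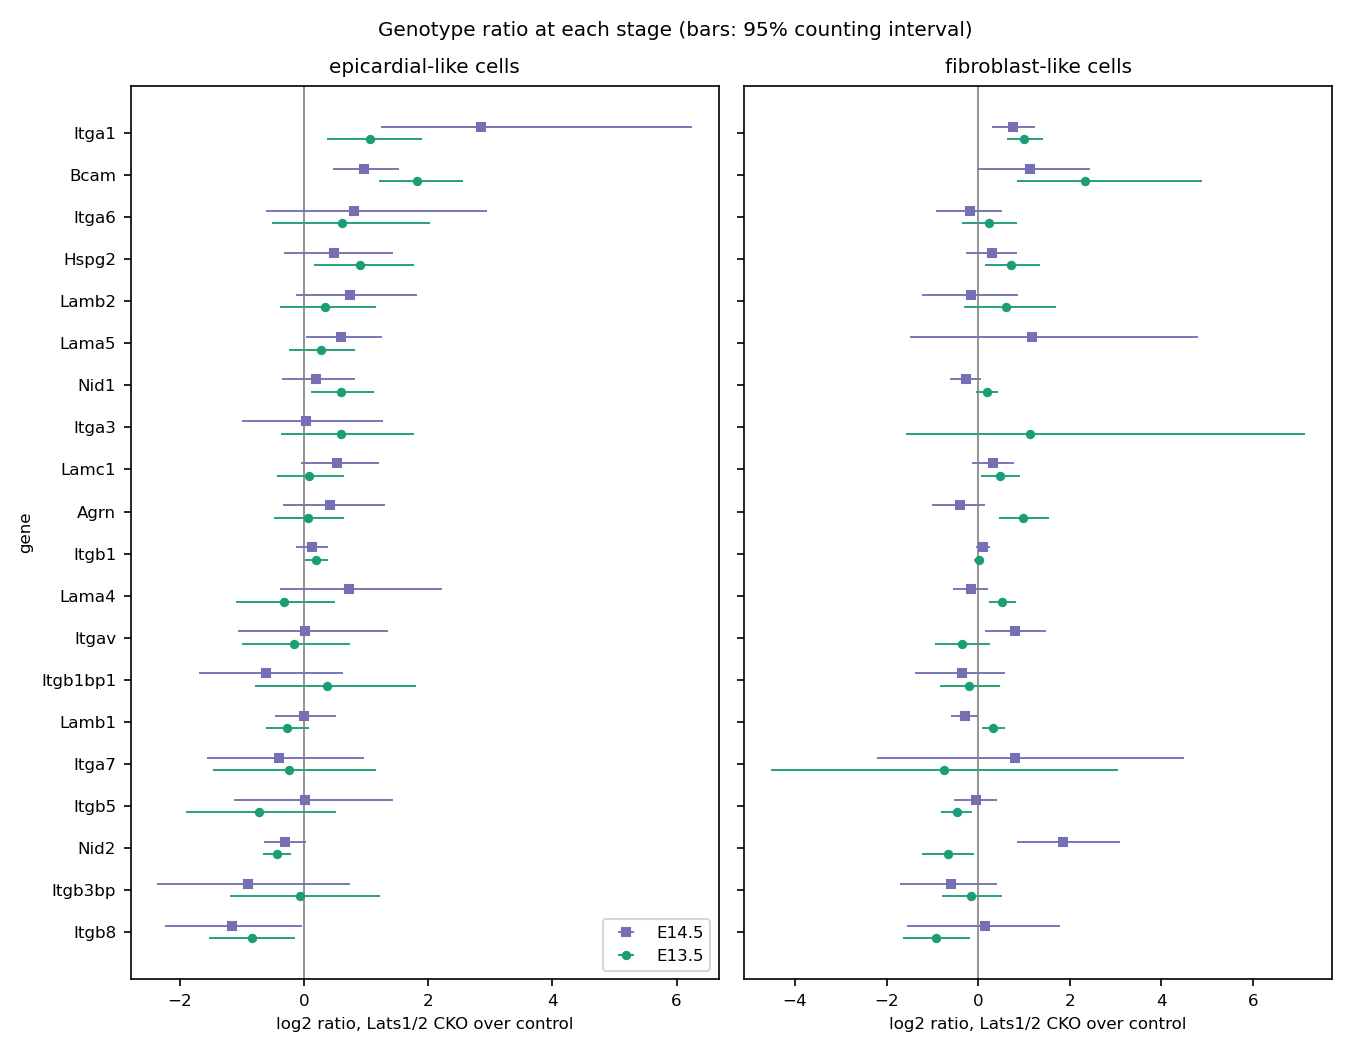
Log2 ratio of Lats1/2 CKO over control (horizontal axis) for the 20 members tested in epicardial-like cells (vertical axis), in epicardial-like cells on the left and fibroblast-like cells on the right, at E14.5 (squares) and E13.5 (circles), with 95% counting intervals and no point where an interval has no bound. Bcam and Itga1 lie to the right of 0 at both stages in both classes, and Nid2 and Itgb8 to the left of 0 at both stages in epicardial-like cells.

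In fibroblast-like cells 0 of 23 members tested passed in edgeR, where 0.0109% of 9185 genes tested did, and 0 passed in DESeq2, where 0.12% did. At an unadjusted p under 0.05 stood 2 members in edgeR (Itga1 and Bcam; 5.16% of all genes) and 0 in DESeq2 (1.31%). Itga1, highest in this class, had log2 ratios of 0.76 (0.29 to 1.23) at E14.5 and 1.0012 (0.62 to 1.41) at E13.5, and both CKO libraries lay above both control libraries. The edgeR fit gave a log2 change of 0.91, SE 0.21, adjusted p = 0.824. Bcam, low in this class, stood at 35.2 CPM in CKO and 15.6 CPM in control cells at E14.5, and 22.1 CPM in CKO and 3.83 CPM in control cells at E13.5, with ratios of 1.14 (-0.02 to 2.45) at E14.5 and 2.33 (0.84 to 4.89) at E13.5 (log2 change 1.73, SE 0.54, adjusted p = 0.944 in edgeR). The control E13.5 value rests on 3 UMIs. Itga8, also highest in this class, had ratios of -0.40 (-1.05 to 0.21) and -0.41 (-0.78 to -0.044) at the same stages. Both CKO libraries lay above both control libraries in 4 members (Bcam, Itga1, Itgb1 and Lama2; 14.2% of all genes) and below them in 4 (Itga9, Itgam_RP23-144N15.3, Itgb1bp1 and Itgb5; 16.1% of all genes).

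With epicardial-like and fibroblast-like cells pooled, the 2 classes with the most Egfp in CKO hearts, Bcam again was the only one of 27 members tested to pass in edgeR, where 0.0732% of 10926 genes did, and it passed in DESeq2 as well, where 0.119% did. It stood at 219.8 CPM in CKO and 57.2 CPM in control cells at E14.5, and 91.9 CPM in CKO and 21.6 CPM in control cells at E13.5 (log2 change 2.03, SE 0.23, adjusted p = 0.04998 in edgeR, just under the threshold, and DESeq2 adjusted p = 0.0159). At an unadjusted p under 0.05 stood 8 members (6.67% of all genes), with Bcam, Hspg2, Itga1, Itga3, Lama5 and Lamb2 higher and Itga4 and Itga8 lower in CKO cells. The call was lost in 11 of 14 alternatives, all upward. Without the CKO E14.5 library the change was 1.22 (adjusted p = 0.99997), without CKO E13.5 2.58 (adjusted p = 0.575), without control E13.5 1.44 (adjusted p = 0.479) and without control E14.5 2.91 (adjusted p = 0.00112), in edgeR fits with no stage term. The make-up of the pool differed beside these values. Epicardial-like cells gave 50.2% of its UMIs in CKO and 22.1% in control cells at E14.5, and 36.8% in CKO and 32.4% in control cells at E13.5. The part of the make-up in the pooled values was not tested. Lama5 had a pooled edgeR log2 change of 1.13 and a change of 0.44 within epicardial-like cells. Bcam had a change of 2.03 in the pool and 1.38 within epicardial-like cells on the log2 scale.

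In each of the other 6 classes 0 members passed in edgeR or DESeq2, and 0 had an unadjusted p under 0.05 in DESeq2. Over these classes together 0.0905% of DESeq2 tests passed and 1.1% had such a p. In valve mesenchyme-like cells 1 of 26 members tested had an unadjusted p under 0.05 in edgeR (Agrn), as did 4.46% of 11248 genes, of which 0.00889% passed. Agrn had its CKO libraries above its control libraries in the valve mesenchyme-like class, with 165 CPM in CKO and 134 CPM in control cells at E14.5, and 154 CPM in CKO and 101 CPM in control cells at E13.5 (log2 change 0.48, SE 0.17, adjusted p = 0.986 in edgeR). In cardiomyocyte-like cells 3 of 28 members tested had an unadjusted p under 0.05 in edgeR (Agrn higher, Nid2 and Itgam_RP23-144N15.3 lower), as did 4.01% of 14046 genes, of which 0% passed. Agrn (adjusted p = 0.989 in edgeR) had counting intervals above 0 at both stages, with log2 ratios of 0.36 (0.046 to 0.68) at E14.5 and 0.76 (0.45 to 1.10) at E13.5. Nid2 had intervals below 0 at both stages in this class, with -0.43 (-0.70 to -0.16) at E14.5 and -0.84 (-1.03 to -0.66) at E13.5. In mural-like cells 1 of 21 members tested had an unadjusted p under 0.05 in edgeR (Lama4), as did 4.74% of 7449 genes, of which 0.188% passed. Lama4 stood there at 144 CPM in CKO and 119 CPM in control cells at E14.5, and 163 CPM in CKO and 72.6 CPM in control cells at E13.5 (log2 change 0.89, SE 0.30, adjusted p = 0.69 in edgeR). In endocardial-like cells 1 of 24 members tested had an unadjusted p under 0.05 in edgeR (Bcam), as did 4.93% of 11342 genes, of which 0.0353% passed. Bcam stood there at 61.5 CPM in CKO and 46.0 CPM in control cells at E14.5, and 47.4 CPM in CKO and 20.5 CPM in control cells at E13.5 (log2 change 0.84, SE 0.27, adjusted p = 0.989 in edgeR). In mural-like cells Bcam had log2 ratios of 2.32 (-0.16 to 8.30) at E14.5 and 0.53 (-0.29 to 1.44) at E13.5. In valve mesenchyme-like cells they were 0.26 (-1.48 to 1.998) at E14.5 and 1.64 (-0.34 to 5.12) at E13.5. In endothelial-like cells 0 of 17 members tested had an unadjusted p under 0.05 in edgeR, as did 3.59% of 7970 genes, of which 0.0125% passed. In macrophage-like cells 0 of 8 members tested had an unadjusted p under 0.05 in edgeR, as did 3.89% of 4269 genes, of which 0% passed.

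The genotype effect in epicardial-like cells was set against that in cardiomyocyte-like cells of the same libraries, in which Egfp was low, in 1 edgeR fit with a term for the difference. Bcam passed, with a difference of 1.11 on the log2 scale (SE 0.27, adjusted p = 0.0153). In cardiomyocyte-like cells Bcam stood at 108 CPM in CKO and 93.5 CPM in control cells at E14.5, and 71.7 CPM in CKO and 57.1 CPM in control cells at E13.5, and its ratio was 0.21 (0.021 to 0.40) at E14.5 and 0.33 (0.11 to 0.55) at E13.5. Itga1 also passed, with a difference of 1.57 (SE 0.38, adjusted p = 0.0127). In the cardiomyocyte-like class it stood at 66.6 CPM in CKO and 71.5 CPM in control cells at E14.5, and 75.1 CPM in CKO and 75.0 CPM in control cells at E13.5, and the groups overlapped. These 2 of 32 members tested passed, where 0.517% of 14317 genes did, and 0 passed in DESeq2 (0.021% of all genes), where 2 had an unadjusted p under 0.05 (2.12%). Against fibroblast-like cells 0 of 26 members differed in effect in edgeR or DESeq2, 0 had an unadjusted p under 0.05 in either, and 0.676% of all genes passed in edgeR and 0.0205% in DESeq2. An unadjusted p under 0.05 was found for 7.64% of all genes in edgeR and 1.42% in DESeq2. The difference for Bcam against fibroblast-like cells was -0.37 (SE 0.50) and that for Itga1 was 0.60 (SE 0.40). Against cardiomyocyte-like cells, the Bcam difference was 1.03 (adjusted p = 0.917) without the CKO E14.5 library, 0.79 (adjusted p = 0.507) without control E13.5 and 1.72 (adjusted p = 0.00108) without control E14.5. The Itga1 difference was 1.64 (adjusted p = 0.365) without CKO E14.5, 1.13 (adjusted p = 0.299) without control E14.5, 1.62 (adjusted p = 0.0788) without CKO E13.5 and 3.42 (adjusted p = 0.00441) without control E13.5.

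**Figure D4:**
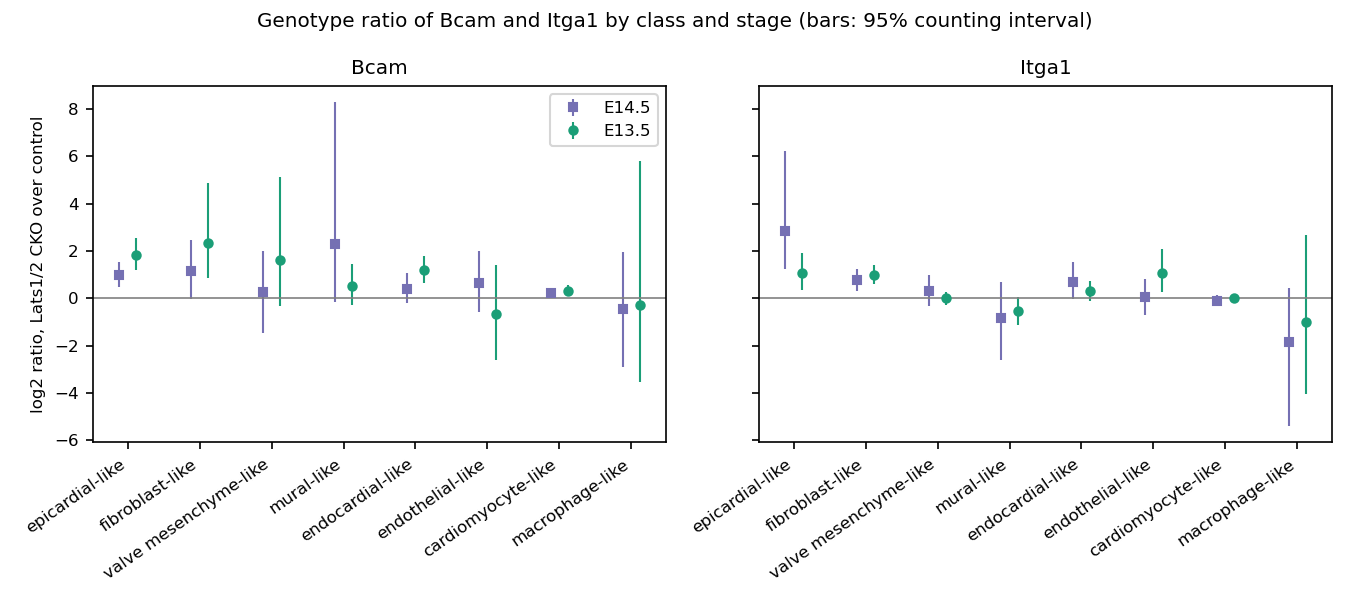
Log2 ratio of Lats1/2 CKO over control (vertical axis) of Bcam and Itga1 in 8 classes of cells (horizontal axis) at E14.5 (squares) and E13.5 (circles), with 95% counting intervals. Epicardial-like and fibroblast-like points lie above 0 for both genes, and the Itga1 points of cardiomyocyte-like cells lie at -0.10 and 0.00076. Bcam also lies above 0 at both stages in valve mesenchyme-like, mural-like, endocardial-like and cardiomyocyte-like cells. Itga1 does so in endocardial-like and endothelial-like cells. Below 0 at both stages lie both genes in macrophage-like cells and Itga1 in mural-like cells.

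Within the CKO libraries, epicardial-like cells with an Egfp UMI could be set beside those without. At E14.5 Bcam stood at 349 CPM (289 to 418) in 84 cells with Egfp and at 504 CPM (405 to 619) in 132 cells without. At E13.5 it stood at 198 CPM (158 to 245) in 97 cells with Egfp and at 229 CPM (181 to 285) in 126 cells without. Bcam was thus higher in the cells without Egfp at both stages. The counting intervals of the 2 sets of cells overlapped, at E14.5 only between 405 and 418 CPM. Such an overlap does not show that the sets agree, and their difference was not tested. Both sets lay above the control library of the stage. Itga1 stood at 113 CPM (79.6 to 154) with and 72.8 CPM (38.8 to 124) without Egfp at E14.5, and at 113 CPM (83.4 to 150.02) with and 103 CPM (71.4 to 143) without Egfp at E13.5. Cells without an Egfp UMI held fewer UMIs on average, so a missing UMI does not mark an unrecombined cell.

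Other measures differed by genotype beside these genes. The 12 early-response genes that rise when tissue is dissociated summed in epicardial-like cells to 2986 CPM in CKO and 4417 CPM in control cells at E14.5, and 3364 CPM in CKO and 5358 CPM in control cells at E13.5. In fibroblast-like cells they summed to 2142 CPM in CKO and 4648 CPM in control cells at E14.5, and 3198 CPM in CKO and 4539.5 CPM in control cells at E13.5. In epicardial-like cells 1 of 11 tested fell in edgeR (Fos, log2 change -0.82, SE 0.19, adjusted p = 0.035), 5 had an unadjusted p under 0.05 with lower CKO levels, where 0.611% of all genes passed and 8.94% had such a p, and their median log2 change was -0.55 against 0.0055 over all genes. In fibroblast-like cells 0 of 11 passed, 8 had an unadjusted p under 0.05 with lower CKO levels, where 0.0109% of all genes passed and 5.16% had such a p, and the median was -0.77 against 0.0045 over all genes. The 8 erythroid markers summed in epicardial-like cells to 2295 CPM in CKO and 2713 CPM in control cells at E14.5, and 4130.3 CPM in CKO and 333 CPM in control cells at E13.5, with 6 to 8 of them detected. Cardiomyocyte markers, 8 genes, summed there to 5586 CPM in CKO and 4296 CPM in control cells at E14.5, and 3553 CPM in CKO and 3396 CPM in control cells at E13.5. The part of these marker lists in the genotype differences of the members was not tested.

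Genes that work with the members were described from fixed lists, and 0 genes of the 4 lists below passed in edgeR or DESeq2 in any class. In the 6 other classes 0 to 2 genes of a list had an unadjusted p under 0.05 in edgeR. Over all genes 8.94% had such a p in epicardial-like and 5.16% in fibroblast-like cells, of either direction, and the median log2 change was 0.0055 in epicardial-like and 0.0045 in fibroblast-like cells. Of 21 other basement membrane genes, 13 were tested in epicardial-like cells, where 1 (Tinagl1) had an unadjusted p under 0.05 with higher and 2 (Hmcn1 and Smoc2) with lower CKO levels. Tinagl1, a laminin-binding matrix protein, stood at 201 CPM in CKO and 44.1 CPM in control cells at E14.5, and 103 CPM in CKO and 66.6 CPM in control cells at E13.5. Hmcn1, which encodes hemicentin, stood at 32.9 CPM in CKO and 71.7 CPM in control cells at E14.5, and 27.4 CPM in CKO and 85.3 CPM in control cells at E13.5. In fibroblast-like cells 4 genes of the list (Col4a2, Egflam, Smoc2 and Tinagl1) had such a p with higher and 1 (Col18a1) with lower CKO levels. The median log2 change of the list was 0.065 in epicardial-like and 0.47 in fibroblast-like cells. Col4a1, a chain of type IV collagen, stood in epicardial-like cells at 383 CPM in CKO and 309 CPM in control cells at E14.5, and 213 CPM in CKO and 239.9 CPM in control cells at E13.5. Of 13 other laminin receptors 10 were tested in epicardial-like cells, and 2 (Cd44 and Mcam) had an unadjusted p under 0.05 with higher CKO levels. Dystroglycan (Dag1), a receptor of laminin and perlecan, stood there at 331 CPM in CKO and 309 CPM in control cells at E14.5, and 319 CPM in CKO and 277 CPM in control cells at E13.5, with both CKO libraries above both control libraries. Of 18 integrin adaptors 15 were tested, with no unadjusted p below 0.05 in epicardial-like cells and 2 (Parva and Tln1) with higher CKO levels in fibroblast-like cells. Of 10 other integrin ligands 5 were tested in epicardial-like cells, with 1 (Col1a2) lower at that level, and 6 in fibroblast-like cells, with 3 (Col1a1, Col1a2 and Fn1) higher.

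Between the stages, E14.5 against E13.5, Bcam rose in epicardial-like cells and was higher at the later stage in both genotypes. The log2 ratio was 0.93 (0.63 to 1.23) in CKO and 1.79 (0.9994 to 2.63) in control cells, with an edgeR log2 change 1.32, SE 0.28, adjusted p = 0.00447. Without the CKO E14.5 library the change was 0.58 (adjusted p = 0.881), without control E13.5 0.65 (adjusted p = 0.999) and without CKO E13.5 2.51 (adjusted p = 0.0154), in fits with no genotype term. It was the only one of 20 members to pass in that class, where 1.59% of all genes did, and no member passed in the other 7 classes in edgeR, where 0.482% of tests over these classes did. In those classes 0 to 4 members had an unadjusted p under 0.05 in edgeR (11.4% of tests). In DESeq2 0 members passed in any class (0.786% of tests over the 8 classes), and at most 1 in a class had an unadjusted p under 0.05 (2.77% of tests). In epicardial-like cells 3 members had such a p in edgeR, as did 9.34% of all genes (Bcam, Lama5 and Lamc1, all higher at E14.5). In fibroblast-like cells, where 8.96% of all genes did, they were Hspg2 and Lamc1 (higher at E14.5) and Itga4 and Itgb8 (lower). Lama5 in epicardial-like cells had a stage change of 0.74 (SE 0.27, adjusted p = 0.309), and Lamc1 of 0.76 (SE 0.28, adjusted p = 0.307). Stage and library cannot be told apart, and the E14.5 libraries were shallower.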

How the data were processed

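Single-cell UMI counts of 4 Drop-seq libraries were used as deposited by the authors in 1 merged table of 30268 rows and 24849 cells. STAR, Picard and mm10 are named per the submitters' processing notes, with no versions. Gene models and strand setting are not given in the sources used here. The fewest genes detected in a deposited cell were 500 at E13.5 and 300 at E14.5. Cells were assigned to libraries from the ending of their names, and the ending was matched to the library titles. Cells with at least 500 UMIs, 300 genes and at most 20% mitochondrial UMIs were kept. Cells were clustered with scanpy 1.11.5 (3092 variable genes after 19 member genes were left out, 30 components, 15 neighbours, Leiden resolution 1.0). A cluster was named when at least 3 fixed markers of a type exceeded the other clusters by 0.5 on the log2 scale with 10 CPM added. The thresholds for naming were set after the clusters were seen. A doublet caller (Scrublet) marked 7 cells in the control E13.5 library and 0 to 2 in the others, so it had not worked. The marked cells were left out, and doublets it did not mark stayed in.

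Counts were summed by class and library. CPM have exact Poisson intervals and ratios exact conditional binomial intervals at 95%, with 0.5 counts added for the ratio itself. Both cover counting error only. Genotype and stage were fitted together with edgeR 4.0.16 (quasi-likelihood test, TMM, filterByExpr, R 4.3.3) over the 4 sums of each class with at least 50 cells in every library. The fit has 1 residual degree of freedom, and the stages are the sole repeat of the genotype contrast. How far the genotype change of a gene differs between the stages gives that 1 degree of freedom. The p-values rest mostly on the dispersion moderated over all genes, so they do not test how well the stages agree for a gene. They do not measure the spread between replicate libraries or embryos, since no genotype and stage had a second library. The difference between classes was fitted with a term for library over 8 sums. Values were adjusted by Benjamini-Hochberg over all genes tested, and passed means an adjusted p under 0.05. DESeq2 1.42.0 was an alternative. Every member with a call, and members with at least 50 UMIs in the cells described, could be named with values, and other genes came from the fixed lists. A single member is not reported here. The members, lists and markers were chosen with earlier results of these data known.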

Additional observations from a re-analysis of the deposited data

Results flagged for a closer look

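The genotype effect differed between epicardial-like and cardiomyocyte-like cells for Bcam, by 1.11 on the log2 scale, and for Itga1, by 1.57, by the edgeR test of the difference given above. In the 8 classes, 5 members had log2 ratios of CKO over control with counting intervals on opposite sides of 0 at the 2 stages. The share of all genes with such opposed intervals was not worked out, so the count does not set the members apart. With 1 library of each kind, these differences between stages were not tested, and the intervals cover counting error only.

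In fibroblast-like cells Nid2 had 1.86 (0.84 to 3.11) at E14.5 and -0.66 (-1.23 to -0.094) at E13.5, with 58.6 CPM in CKO and 15.6 CPM in control cells at E14.5, and 42.7 CPM in CKO and 67.6 CPM in control cells at E13.5. Itga5, the alpha subunit of the main fibronectin receptor, had -1.71 (-3.57 to -0.38) at E14.5 and 1.08 (0.037 to 2.38) at E13.5 in that class, and Lamb1 had -0.29 (-0.59 to -0.0045) at E14.5 and 0.33 (0.093 to 0.58) at E13.5. Most fibroblast-like cells came from cluster 6 at E14.5 and from cluster 9 at E13.5. Lama2 in mural-like cells had -2.08 (-5.56 to -0.10) at E14.5 and 0.84 (0.038 to 1.76) at E13.5, and Itgb1 in endocardial-like cells had -0.18 (-0.30 to -0.055) at E14.5 and 0.18 (0.10 to 0.26) at E13.5. The Lama2 ratio at E14.5 rests on 2 UMIs in CKO and 10 UMIs in control cells.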

How the results depend on the processing

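Of 600 alternatives to 46 values of single genes, 553 kept direction and side of the threshold, 36 lost a call, 9 gained one and 2 reversed. The 46 were the member values with an unadjusted p under 0.05 in edgeR, most of them not called. Such a value counted as kept when it stayed uncalled, so the 553 do not show stable calls. The Bcam call by genotype held in 3 of 13 alternatives in epicardial-like and 3 of 14 in pooled cells. Its stage call and both calls of the difference from cardiomyocyte-like cells each held in 7 of 12. The reversed values were Lama4 by genotype in mural-like cells (-0.090) and Nid2 by stage in endothelial-like cells (0.073), both with cells gated on marker UMIs.

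The count of members passing by genotype in epicardial-like cells, 1 as reported, was 0 with DESeq2, library totals without TMM, resolution 0.5, member genes kept in the clustering, the marker gate, the highest 5% of doublet scores left out, or no stage term. It was 2 (Bcam and Itga1) without the filter on low counts, and 0 to 1 with a library left out, where the 1 without control E13.5 was Itga1. In the pooled cells the count, 1 as reported, was 0 with no TMM, resolution 0.5 or 2.0, member genes kept, the gate, the doublet scores, cells of at least 1000 UMIs or no stage term. It was 3 (Bcam, Itga1 and Lama5) without the filter, and 0 to 1 with a library left out. By stage the count, 1 as reported, was 0 with DESeq2 or member genes kept, 2 with the gate (Itga4 in mural-like and Bcam in valve mesenchyme-like cells), and 0 to 3 with a library left out. With cells of at least 1000 UMIs it was 0 over the classes left, since epicardial-like cells, which held the stage call, could not be fitted. For the difference between epicardial-like and cardiomyocyte-like cells, 2 as reported, it was 0 with DESeq2 or the gate, 1 (Itga1) with member genes kept, and 0 to 1 with a library left out. Leaving out libraries for stage and for differences between classes was chosen after seeing the data. The cause of these changes was not tested. The genotype counts of 0 for fibroblast-like cells and for the other 6 classes, and the count of 0 for the difference from fibroblast-like cells stayed 0 in every alternative that could be fitted, and 31 to 38 of the 38 members kept their highest class.

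Cells of at least 1000 UMIs could not be fitted for epicardial-like cells or for the differences, since a library then held under 50 cells. No paired analysis was possible because each genotype and stage had 1 library and the labels number no replicates. The reported fit already sets CKO beside control within each stage through its stage term. Depth limits members with few UMIs in a library, such as Itga1 with 2 UMIs in the control E14.5 library of epicardial-like cells.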

Other observations

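The 11 members with 1 to 49 UMIs in the kept cells entered no fit within a class. In the fit of the difference between epicardial-like and cardiomyocyte-like cells 2 of them were tested (Itgbl1 and Lama3), and neither passed in edgeR (adjusted p = 0.933 for Itgbl1 and 0.846 for Lama3). In erythroid-like cells, which were not compared, Itga4 stood at 11.4 to 35.4 CPM, Itgb1 at 668 to 778 CPM and Nid2 at 42.0 to 70.1 CPM over the 4 libraries, where the control E13.5 library had 39 cells.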
